A study of Mus musculus with 9 samples.

Results

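Immediate early genes are induced within minutes of a stimulus, without new protein synthesis, and their mRNAs are then removed quickly. Much of that removal starts with shortening of the poly(A) tail, which the CCR4-NOT deadenylase complex carries out. CNOT3 is a subunit of that complex. AU-rich elements in the 3′ untranslated region recruit proteins such as ZFP36, which in turn binds CCR4-NOT. The 10 immediate early genes described here are Fos, Fosb, Jun, Junb, Egr1, Ier2, Atf3, Ier3, Dusp1 and Zfp36. They were listed by name for their short-lived mRNAs and matched by symbol to the Ensembl identifiers of the count table, where all 10 of 57010 genes were found.

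The values come from bulk RNA-seq of microdissected cortices at E12.5, with 3 embryos per genotype and 1 library per embryo. Control embryos (Ctrl) are labelled WT. Cnot3 cKO embryos lose floxed Cnot3 through Emx1-Cre, which is active in radial glial cells of the dorsal telencephalon and in their progeny. Cnot3;Trp53 dcKO embryos lose floxed Trp53 as well, through the same Cre. Blood vessels, meninges, microglia and blood cells in the dissected tissue are not known to descend from the Emx1 lineage. Embryos are named by genotype and replicate number.

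Cnot3 lay between 91.4% and 109% of its Ctrl mean in the Ctrl embryos, as read in CPM (reads of a gene scaled to the library total). It lay at 13.5% to 16.1% of the Ctrl mean in cKO, at 6.82% in dcKO 1 and at 17.7% in dcKO 3, but at 44.9% in dcKO 2. Trp53 was at 6.41% and 8.76% of the Ctrl mean in dcKO 1 and dcKO 3 and at 46.9% in dcKO 2. The library labelled dcKO 2 therefore kept more reads of both targeted genes than the other 2 dcKO libraries, and it also held 8.43 CPM of subpallial markers (Dlx, Gad and related genes) where the other 8 libraries held at most 0.489. Fitted changes of the members that involve dcKO are given with and without it, whereas the shares of separated genes, the GC-corrected values and the other gene lists include it unless stated. Radial glia markers summed to between 2867 and 3376 CPM in all 9 embryos, but this sum is carried by Vim and Nes. In cKO, Vim was higher in every embryo (1329 ± 169 CPM in Ctrl and 1819 ± 191 CPM in cKO). Of the 8 markers, 4 were lower in every cKO embryo, against 28.0% of all tested genes, among them Nes (1049 ± 31.3 and 654 ± 93.3 CPM). The median log2 fold change of the 8 was -0.23. DESeq2 called Hes5 lower (-1.83, DESeq2 adjusted p-value 0.00543), which edgeR did not (0.0694), and the part of these markers in the members' values was not tested. Counted reads ranged from 21193798 to 45073349 per embryo.

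The 5 windows that follow show matches to short sequence motifs of AU-rich elements, found by their letters alone. Whether proteins bind these windows was not tested. Each holds 30 bases of a 3′ untranslated region, read from GENCODE M21 transcripts (GRCm38), 5′ to 3′ on the transcript. Capitals mark the TTATTTATT nonamer, the site ZFP36 is known to prefer, in Fos, Dusp1 and Zfp36, and the ATTTA pentamer in Ier3 and Atf3. Pentamers beside or overlapping a nonamer are not marked. Fos, Ier3 and Atf3 are shown because their levels in cKO lay above all Ctrl embryos, and Dusp1 and Zfp36 because they hold the nonamer and did not separate in that comparison.
Fos: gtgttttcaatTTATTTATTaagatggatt
Ier3: gtgtctaattaatATTTAtgtATTTAtgta
Atf3: caccaattccaggATTTAggccttatcatc
Dusp1: ggagctggtccTTATTTATTtaacaccccc
Zfp36: atttatgacgactTTATTTATTgtattaag
The Fos window lies at chr12:85477102-85477131 on the plus strand and starts at base 644 after the stop codon. The Ier3 window lies at chr17:35822480-35822509 on the plus strand, at base 170. The Atf3 window lies at chr1:191171242-191171271 on the minus strand, at base 211. The Dusp1 window lies at chr17:26506159-26506188 on the minus strand, at base 92, and the Zfp36 window at chr7:28376953-28376982 on the minus strand, at base 576.

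In the longest annotated 3′ untranslated region of each gene, 9 of 10 members held at least 1 ATTTA, against 72.9% of 12059 tested genes with such a region. Ier3 held 5, Fos, Jun and Dusp1 held 4 each, and Ier2 held 0. The nonamer was found in 3 of 10 members, against 8.7% of those genes. It occurred 2 times in Dusp1 and 1 time each in Fos and Zfp36. Among all tested genes with such a region, the 1052 that held the nonamer had a median log2 fold change of -0.02 in cKO and 0.15 in dcKO, against 0.05 and 0.11 for the 11007 that did not. With a correction for GC content these medians were -0.14 in cKO and -0.09 in dcKO with the nonamer, against 0.00 and 0.03 without it, so the order turned in dcKO. These medians are a description, and the genes with a nonamer also had longer 3′ untranslated regions (median 2426 bases against 1222) and a lower GC content (46.7% against 49.8%). In RefSeq promoters (GRCm38.p6, from 250 bases before the start to 50 after), 8 members had an entry. On either strand, the CRE letters TGACGTCA were found in Dusp1 of these 8 and in 1.79% of all promoters. A CArG box, the core of the serum response element, was found in Zfp36 of these 8 and in 1.63% of all promoters. An AP-1 site (TGACTCA or TGAGTCA) was found in 0 of these 8, and in 5.2% of all promoters. The windows are short, and sites further upstream were not searched.

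At this stage the 10 mRNAs covered a wide range of levels. Levels between genes are compared here as CPM per kb of exon. In Ctrl, Jun (27.1 ± 7.06, SD, n = 3) and Ier2 (15.2 ± 9.16) were the most abundant, followed by Dusp1 (5.82 ± 1.06). Egr1 (1.28 ± 0.27), Zfp36 (1.11 ± 0.108) and Ier3 (1.01 ± 0.189) formed the middle of the order. Junb (0.39 ± 0.282), Atf3 (0.352 ± 0.0434) and Fos (0.246 ± 0.172) were lower still, and Fosb had no read in any Ctrl embryo. Neighbours in this order overlapped between embryos within each of these groups, namely Jun with Ier2, Egr1 with Zfp36 and Ier3, and Junb with Atf3 and Fos. The groups themselves did not overlap, although Ier2 in Ctrl 3 (6.89) and Dusp1 in Ctrl 1 (6.83) lay close together. Of the 10 members, 6 (Jun, Egr1, Ier2, Atf3, Dusp1, Zfp36) had more than 10 reads in every embryo and entered the test of 13680 genes. Fos, Fosb and Junb fell short in at least 1 Ctrl embryo, and Ier3 only through its 4 reads in dcKO 2, with 20 to 89 in the other 8 embryos. Values for Fos, Junb and Ier3 come from a second fit of all 26872 genes with a read.

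**Figure D1:**
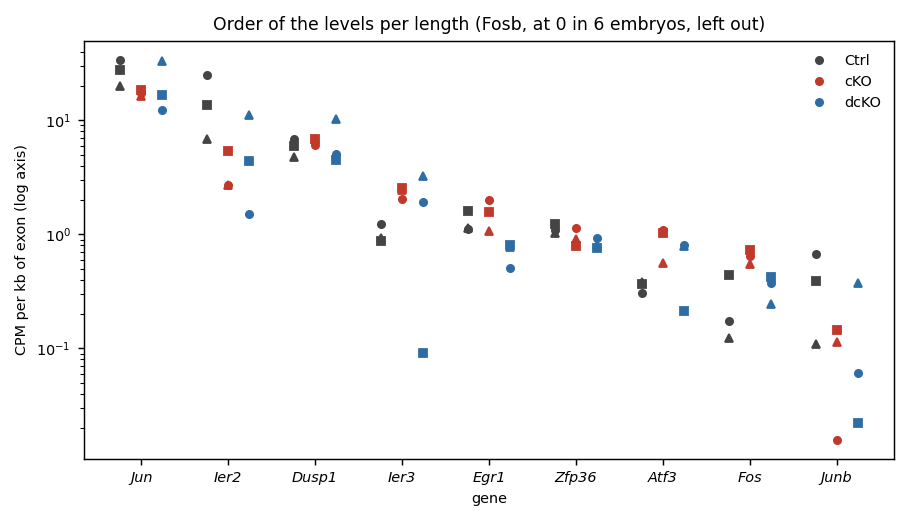
Level of 9 members in CPM per kb of exon on a log axis, in order of the mean over all embryos, with 1 point per embryo (grey Ctrl, red cKO, blue dcKO). Jun and Ier2 lie highest and Fos and Junb lowest, and Ier3 in dcKO 2 (0.0903) stands far below its other embryos.

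Of the 6 tested members, 3 had negative log2 fold changes in cKO (Jun, Ier2, Zfp36) and 4 in dcKO (these and Egr1). A call needed a more than 2-fold difference (log2 above 1 or below -1) at an edgeR adjusted p-value under 0.05. By this rule 0 of the 6 tested members were called in cKO (0.0146% of all tested genes), 0 in dcKO (0.0%) and 0 between dcKO and cKO (0.0146%). Of all tested genes the rule called 2 in cKO and 0 in dcKO, where the targeted Cnot3 and Trp53 were not called either. Counts of 0 by this rule therefore say little about the members. DESeq2 on the same genes called 1 member, Ier2, in cKO (8.82% of all genes), 0 in dcKO (8.46%) and 0 between the mutants (0.38%). At an unadjusted edgeR p-value under 0.05, the members were Ier2 and Atf3 in cKO (27.0% of all genes), Egr1 in dcKO (29.2%) and Egr1 between the mutants (4.42%). Fits of fewer embryos or with a block called more genes in general. In cKO, the fit of only the 6 Ctrl and cKO embryos called Ier2 and Atf3 and 12.9% of all tested genes. Among all genes with a read it called 9.33%, with Ier2 and Ier3 among them but not Atf3. With no filter and all 9 embryos, it was Ier2 in cKO and 3.03% of all genes with a read. Of all tested genes in cKO, 6.72% were called without dcKO 1 (Ier2 among them), 8.34% without dcKO 2 (Atf3) and 10.8% without dcKO 3 (Ier2). Without dcKO 3, 23.7% were called in dcKO (Ier2) and 9.04% between the mutants (Egr1). A block on the number in the embryo codes called 14.5% of all tested genes in cKO (Ier2 among them), 11.9% in dcKO (Dusp1) and 11.6% between the mutants (Jun, Ier2 and Dusp1). The median log2 fold change of the 6 members was -0.03 in cKO against 0.01 over all tested genes, -0.41 in dcKO against 0.11, and -0.09 between the mutants against 0.07. Without dcKO 2 the members' median was -0.31 in dcKO and 0.05 between the mutants, and without dcKO 3 it was -0.65 and -0.37. Under the block on the code number it turned positive, at 0.72 in dcKO, which rests on 1 pair of embryos, and 0.56 between the mutants. With a correction for GC content it was 0.08 in cKO, -0.04 in dcKO and 0.09 between the mutants. Both mutants were compared with the same Ctrl embryos.

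**Figure D2:**
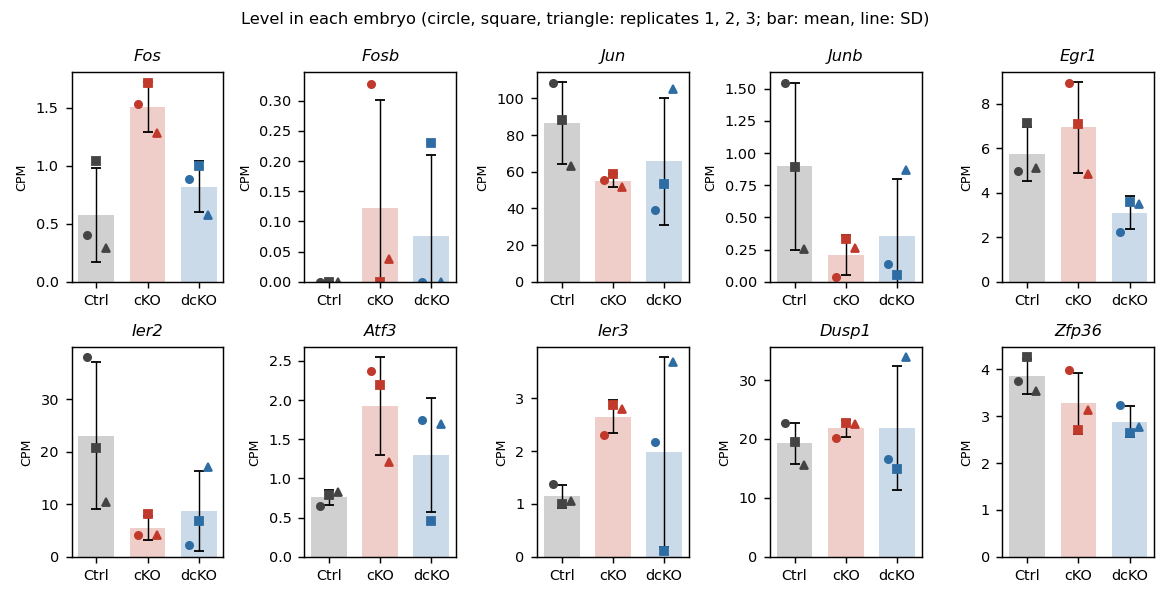
CPM of the 10 members in each embryo, with the mean (bar) and SD (line) of 3 embryos per genotype and a separate linear axis per gene. Fos, Atf3 and Ier3 lie higher in every cKO embryo than in any Ctrl embryo, and Jun and Ier2 lower.

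The first group of members encodes subunits of AP-1, a dimeric transcription factor in which FOS proteins pair with JUN proteins. Fos was counted at 10, 21 and 8 reads in Ctrl, 42, 46 and 34 in cKO, and 32, 39 and 14 in dcKO. This corresponded to 0.408, 1.04 and 0.288 CPM in Ctrl, 1.53, 1.71 and 1.28 CPM in cKO, and 0.888, 0.996 and 0.58 CPM in dcKO. Every cKO embryo lay above every Ctrl and every dcKO embryo, whereas dcKO overlapped with Ctrl. The fitted change was 1.33 ± 0.77 (log2, SE) in cKO with an edgeR adjusted p-value of 0.417, so it was not called. It was 0.42 ± 0.77 in dcKO (adjusted p-value 0.814) and -0.91 ± 0.76 between dcKO and cKO (adjusted p-value 0.866). A two-sided exact permutation of the 6 embryo labels gave p = 0.1 for cKO, the smallest p-value this design allows. Without dcKO 2 it was 0.32 in dcKO and -1.04 between the mutants. The control embryos mattered more, since without Ctrl 2 the change was 2.04 in cKO and 1.13 in dcKO, and without Ctrl 3 it was 1.01 and 0.10. Fosb, a close relative of Fos, had 9 reads in cKO 1, 1 in cKO 3 and 9 in dcKO 2, and 0 in the other 6 embryos. A count of 0 allows up to 3 reads, or up to 0.142 CPM in the shallowest Ctrl library, so no fold change is given.

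Jun, the founding JUN subunit, was the most abundant member, and it lay lower in cKO. It stood at 108, 88.0 and 63.3 CPM in Ctrl, at 55.2, 58.7 and 51.7 CPM in cKO and at 39.1, 53.2 and 105 CPM in dcKO. Every cKO embryo was below every Ctrl embryo, while dcKO 1 and dcKO 2 were also below Ctrl and dcKO 3 reached the level of Ctrl 1. The log2 fold change was -0.65 ± 0.34 in cKO (edgeR adjusted p-value 0.243) and -0.40 ± 0.34 in dcKO (0.446), and neither passed. With the same cKO value, the adjusted p-value was 0.0088 in a fit of the 6 Ctrl and cKO embryos and 0.0315 without dcKO 3. Blocked on the number in the embryo codes, whose meaning is not given in the sources used here, the cKO value was -0.83 (1.235e-05). All of these were under 2-fold. The blocked dcKO value, which rests on the 1 pair Ctrl 3 and dcKO 3, was 0.73. The dcKO value was -0.27 without dcKO 2, -0.91 (0.00743) without dcKO 3, -0.13 without dcKO 1 and -0.20 without Ctrl 1. Between dcKO and cKO, Jun was at 0.25 (0.936), at 0.38 without dcKO 2, at -0.26 without dcKO 3 and at 1.56 (1.6e-05) under the block. Junb, which pairs with FOS proteins but activates transcription more weakly than JUN in many settings, had 38, 18 and 7 reads in Ctrl, 1, 9 and 7 in cKO, and 5, 2 and 21 in dcKO. Its embryos overlapped in all 3 comparisons. Fitted values were -2.12 ± 1.23 in cKO (adjusted p-value 0.418) and -1.44 ± 1.20 in dcKO (0.532), which became -0.91 without dcKO 2 and -3.28 without dcKO 3. Without Ctrl 1 Junb was at -1.46 in cKO and -0.77 in dcKO. Between the mutants Junb was at 0.68 ± 1.21 (0.996), or 1.19 without dcKO 2. The 3′ end of Junb overlaps Prdx2 on the opposite strand, and Jun overlaps the antisense gene Junos. The libraries were stranded, but the strand setting of the counting is not given in the sources used here, so reads of such pairs may not be separated.

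The next members are Egr1, Ier2 and Atf3, which encode other regulators of transcription. Ier2 showed the lowest values relative to Ctrl among the tested members in cKO. Its levels were 38.0, 20.6 and 10.5 CPM in Ctrl, 4.16, 8.14 and 4.11 CPM in cKO, and 2.30, 6.72 and 17.1 CPM in dcKO. All cKO embryos lay below all Ctrl embryos, although Ctrl 1 and Ctrl 3 themselves differed by more than cKO 2 and Ctrl 3 did. The log2 fold change in cKO was -2.07 ± 0.69, with an adjusted p-value of 0.0971 in edgeR and 0.0133 in DESeq2. When the fit held only the 6 Ctrl and cKO embryos, the edgeR adjusted p-value was 0.00314, and it was 0.0162 without dcKO 3. Blocked on the number in the embryo codes, the cKO value was -2.27 (2.14e-07), which passed, and the dcKO value turned to 0.70 on 1 pair. In dcKO the log2 fold change was -1.41 ± 0.68 (edgeR adjusted p-value 0.195). It was -1.26 (0.297) without dcKO 2 and -2.35 (0.0101) without dcKO 3. Without Ctrl 1 it was -1.51 in cKO (0.323) and -0.84 in dcKO (0.534). Between dcKO and cKO it was 0.66 ± 0.67 (0.906), or 0.82 without dcKO 2. It was -0.28 without dcKO 3 and 2.98 (2.67e-05) under the block, which passed.

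Egr1, a zinc finger transcription factor, was the member that lay lower in every dcKO embryo than in every cKO and every Ctrl embryo. It measured 4.97, 7.14 and 5.12 CPM in Ctrl, 8.90, 7.07 and 4.83 CPM in cKO, and 2.25, 3.60 and 3.48 CPM in dcKO. Ctrl and cKO overlapped, with a log2 fold change of 0.27 ± 0.35 (edgeR adjusted p-value 0.645). In dcKO the log2 fold change was -0.89 ± 0.35, with an adjusted p-value of 0.131 in edgeR and 0.0555 in DESeq2. Between dcKO and cKO it was -1.16 ± 0.35, with 0.889 in edgeR and 0.141 in DESeq2. Without dcKO 2 the values were -1.01 (edgeR adjusted p-value 0.0894) and -1.28 (0.819), and without dcKO 3 the change between the mutants was -1.24 (0.0392). With the correction for GC content described below, the dcKO value was -0.13 (0.86). Blocked on the number in the embryo codes, the change between the mutants was -0.53. Markers of endothelial cells summed to 243 to 321 CPM in Ctrl, 225 to 322 CPM in cKO and 152 to 162 CPM in dcKO, and those of meningeal fibroblasts to 793 to 870, 463 to 707 and 333 to 525 CPM. The single meningeal markers disagreed in cKO, where 4 of 8 had positive log2 fold changes and the median was -0.03. In dcKO, 2 of 8 did, and the median was -0.49. None of the 8 markers of either list was at 0 in every embryo. In bulk tissue, fewer cells of a type and less RNA per cell cannot be told apart, and the part of these cells in the Egr1 values was not tested.

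Atf3, a CREB-family factor induced by stress, moved the opposite way to Ier2 in cKO. Its levels were 0.652, 0.793 and 0.829 CPM in Ctrl, 2.37, 2.19 and 1.21 CPM in cKO, and 1.75, 0.46 and 1.70 CPM in dcKO. Every cKO embryo was above every Ctrl embryo, as were dcKO 1 and dcKO 3, whereas dcKO 2 was below all 3 Ctrl embryos. The log2 fold change was 1.34 ± 0.53 in cKO (2.53-fold), with an edgeR adjusted p-value of 0.14 and a DESeq2 adjusted p-value of 0.121. The edgeR adjusted p-value was 0.014 in a fit of the 6 Ctrl and cKO embryos alone and 0.0333 in a fit without dcKO 2. Atf3 was not called when the same 6 embryos were fitted over all genes with a read. In dcKO the log2 fold change was 0.77 ± 0.53 (0.352), and without dcKO 2 it was 1.18 (0.0651). Between the mutants it was -0.57 ± 0.51 (0.893), or -0.16 without dcKO 2.

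Ier3 encodes a small protein that modulates cell survival and ERK signalling, and its embryos followed those of Atf3. It was counted at 34, 20 and 29 reads in Ctrl, 63, 77 and 74 in cKO, and 78, 4 and 89 in dcKO. In CPM, Ctrl held 1.39, 0.992 and 1.05, cKO 2.30, 2.86 and 2.79, and dcKO 2.17, 0.102 and 3.68. As with Atf3, all cKO embryos, dcKO 1 and dcKO 3 lay above all Ctrl embryos and dcKO 2 lay below them. The log2 fold change in cKO was 1.15 ± 0.77 (2.22-fold, edgeR adjusted p-value 0.478). In the fit of the 6 Ctrl and cKO embryos it was 1.17 with an adjusted p-value of 0.0333, and in the fit without dcKO 2 it was also 1.17, with 0.0995. In dcKO it was 0.71 ± 0.77 (0.632), whereas it was 1.29 (0.0986) without dcKO 2 and -0.09 without dcKO 3. Between the mutants it was -0.44 ± 0.75 (0.99), or 0.12 without dcKO 2. Markers of microglia and macrophages summed to 47.4 to 56.3 CPM in Ctrl, 63.8 to 124 CPM in cKO and 22.6 to 41.0 CPM in dcKO, and 5 choroid plexus markers to 1.41 to 2.63, 15.9 to 69.1 and 17.0 to 107 CPM. Erythroid markers summed to 6737 to 9995 CPM in Ctrl, 8509 to 13480 CPM in cKO and 4665 to 6462 CPM in dcKO, where every sum lay below every Ctrl and cKO sum. Taken singly, 0 of the 8 markers were lower in every dcKO embryo than in Ctrl, against 11.2% of all tested genes, and 2 had positive log2 fold changes. Against cKO, 5 of the 8 were lower in every dcKO embryo, where 6.24% of all tested genes did not overlap in either direction. None of the markers in these lists was at 0 in every embryo, and their part in the values of Fos, Atf3, Ier3 and Egr1 was not tested.

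The last members act in negative feedback. Dusp1, a phosphatase that switches off MAP kinases, stood at 22.6, 19.5 and 15.6 CPM in Ctrl, 20.2, 22.7 and 22.6 CPM in cKO, and 16.6, 14.9 and 33.9 CPM in dcKO. The groups overlapped in all 3 comparisons, and dcKO 3 was the highest of the 9 embryos. The log2 fold change was 0.18 ± 0.32 in cKO (edgeR adjusted p-value 0.751) and 0.18 ± 0.32 in dcKO (0.733). It was 0.39 in dcKO without dcKO 2 and -0.29 without dcKO 3. Between the mutants it was -0.002 ± 0.32 (0.9999), or 0.21 without dcKO 2. Blocked on the number in the embryo codes, it was 1.12 in dcKO (0.00407), which rests on the 1 pair Ctrl 3 and dcKO 3, and 1.01 between the mutants (0.034), and both were past the threshold. Zfp36, which binds AU-rich elements and recruits CCR4-NOT, had the narrowest range of CPM on a log scale among the members over the 9 embryos. It measured 3.75, 4.26 and 3.53 CPM in Ctrl, 3.98, 2.71 and 3.13 CPM in cKO, and 3.25, 2.63 and 2.77 CPM in dcKO. Every dcKO embryo was below every Ctrl embryo, with a log2 fold change of -0.42 ± 0.30 (edgeR adjusted p-value 0.378), or -0.35 (0.434) without dcKO 2. In cKO it was -0.23 ± 0.30 (0.652), and between the mutants -0.18 ± 0.30 (0.965), or -0.12 without dcKO 2. Zfp36 overlaps the antisense gene Gm44710, and Dusp1 overlaps Ergic1 on the opposite strand.

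Groups that do not overlap were common across the transcriptome, so the separations above are read against that share. In cKO, 1 of the 6 tested members (Atf3) was higher in every embryo, against 29.2% of all tested genes, and 2 of 6 (Jun, Ier2) were lower, against 28.0%. In dcKO, 0 of 6 were higher in every embryo, against 15.6%, and 2 of 6 (Egr1, Zfp36) were lower, against 11.2%. Without dcKO 2 the same 2 of 6 were lower, against 20.1%. Between dcKO and cKO, 1 of 6 (Egr1) did not overlap, against 6.24%. Fos and Ier3 also separated in cKO and Fos between the mutants, but both were outside the genes these percentages cover.

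**Figure D3:**
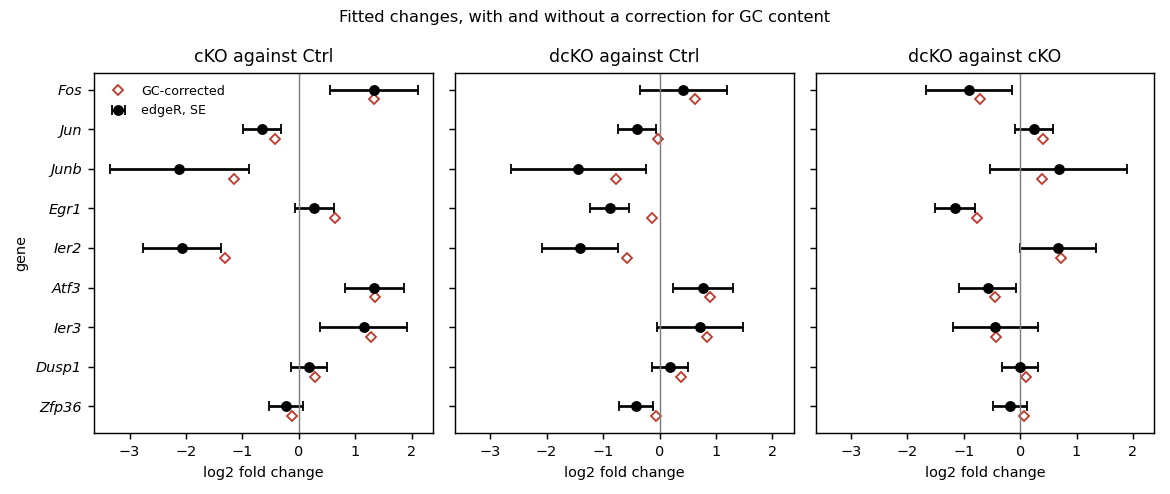
Log2 fold changes of 9 members with their SE (black, edgeR) and after a correction for GC content (open diamonds), for the 3 comparisons. Fos, Atf3 and Ier3 in cKO stay above 1 under the correction, and Ier2 in cKO moves from -2.07 to -1.31.

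Levels of genes rich in G and C moved with the libraries as a whole, and the members differed in this property. Junb had a GC content of 62.6% (percentile 99.1 of the tested genes), Ier2 of 60.9% (97.7), Egr1 of 57.3% (89.1) and Jun of 55.5% (81.6). Ier3 (54.4%, 75.9), Zfp36 (54.1%, 74.5) and Dusp1 (54.0%, 73.9) followed, and Atf3 (52.2%, 64.8) and Fos (51.9%, 63.3) lay nearest to the middle. The 694 tested genes within 2 percentage points of the GC content of Ier2 had a median log2 fold change of -0.70 in cKO and -0.69 in dcKO, whereas the 2854 genes around that of Fos had -0.05 and -0.10. Relative to the Ctrl mean, the genes around Ier2 had medians of -1.61 in dcKO 1 and -1.64 in dcKO 2 but 0.21 in dcKO 3. The levels of Ier2, Jun and Junb in dcKO 3 stood apart from dcKO 1 and dcKO 2 in the same direction. After subtraction of this median from its own difference, Ier2 was at -1.56, -0.84 and -1.46 in the 3 cKO embryos, below its range of -0.56 to 0.61 in Ctrl. Fos was at 1.60, 1.79 and 1.39 in cKO, above its Ctrl range of -0.74 to 1.01. Egr1 was at -0.28, 0.49 and -0.89 in dcKO, which overlapped its Ctrl range of -0.34 to 0.27. Zfp36 was at 0.28, 0.07 and -0.61 in dcKO, which overlapped its Ctrl range of -0.08 to 0.11. Jun was at -0.33, -0.33 and -0.37 in cKO, below its Ctrl range of -0.29 to 0.27. Dusp1 was at 0.24, 0.38 and 0.44 in cKO and at 0.31, 0.24 and 0.70 in dcKO, all above its Ctrl range of -0.21 to 0.20. Such separations were common after the same subtraction too. In cKO, 2 of the 6 tested members were then higher in every embryo (Atf3, Dusp1), against 28.6% of all tested genes with a GC value, and 2 of 6 were lower (Jun, Ier2), against 28.9%. In dcKO, 1 of 6 was higher (Dusp1), against 12.9%, and 0 of 6 were lower, against 12.6%.

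With an offset per gene and embryo for GC content, chosen after the data were seen, the log2 fold change of Ier2 was -1.31 in cKO (edgeR adjusted p-value 0.0579) and -0.58 in dcKO (0.369). Jun was at -0.43 in cKO (0.123) and -0.03 in dcKO (0.937), and Junb at -1.15 in cKO (0.569) and -0.76 in dcKO (0.736). Egr1 was at -0.13 in dcKO (0.86) and -0.77 between the mutants (0.685), and Zfp36 at -0.06 in dcKO (0.923). In cKO Egr1 was at 0.64 (0.264). Dusp1 was at 0.28 in cKO (0.285) and 0.39 in dcKO (0.199). Atf3 (1.34), Fos (1.34) and Ier3 (1.27) in cKO kept values near those above, with adjusted p-values of 0.0809, 0.32 and 0.29. The source of the shift with GC content was not tested.

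**Figure D4:**
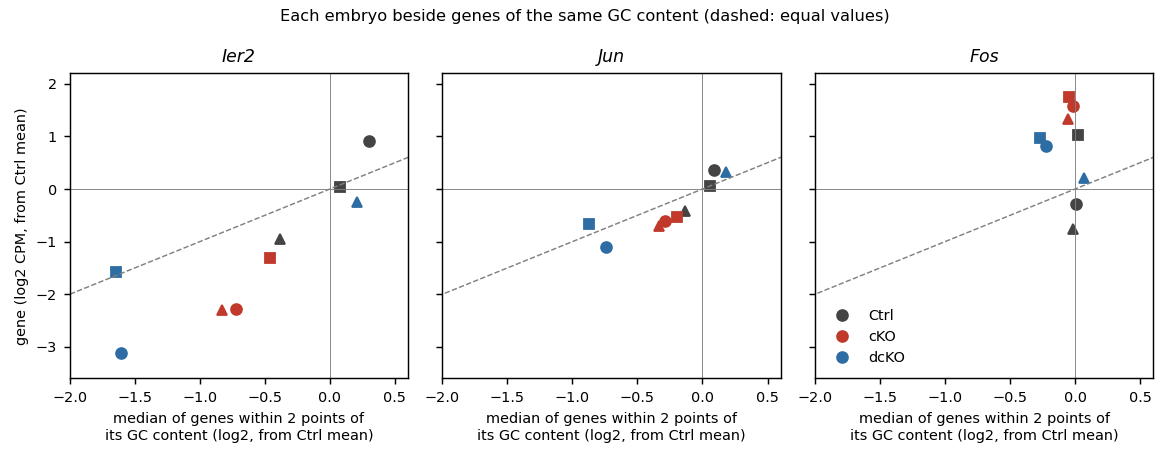
Difference of Ier2, Jun and Fos in each embryo from the Ctrl mean of that gene (log2 CPM, vertical) against the median difference of the genes within 2 percentage points of its GC content (horizontal), with the dashed line at equal values. Ier2 in the 3 cKO embryos lies below the line, Jun in the 3 cKO embryos lies below it by less, and Fos in the 3 cKO embryos lies above it.

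The members also differed in which embryos they shared. Over the 9 embryos, Pearson's r of log2 CPM was 0.95 between Jun and Ier2, 0.81 between Jun and Junb, 0.81 between Junb and Ier2, and 0.81 between Ier3 and Atf3. It was -0.47 between Fos and Jun and -0.52 between Fos and Ier2. These values describe 9 libraries that differ in genotype, depth and their shift with GC content. Ctrl 1 had the highest level of 3 of the 9 members with reads in all embryos (Jun, Junb and Ier2), and dcKO 2 the lowest level of 4. The genes outside the list whose levels followed the mean of the 6 tested members most closely were Jph4 (r = 0.98), Sez6 (0.97), Dnm2 (0.97), Gm2451 (0.96) and Prdm11 (0.96), over the same 9 embryos.

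The embryo codes carry a number that some embryos of different genotype share, and what it stands for is not stated. Of one such pair, cKO 2 differed from Ctrl 1 by -2.22 for Ier2, -0.88 for Jun, 2.02 for Fos and 1.72 for Atf3 (log2 CPM). Of another, cKO 3 differed from Ctrl 2 by -2.32 for Ier2, -0.77 for Jun, 0.30 for Fos and 0.59 for Atf3. Of the last, dcKO 3 differed from Ctrl 3 by 0.70 for Ier2, 0.73 for Jun, 0.96 for Fos and 1.02 for Atf3. Fos, Atf3 and Ier3 were thus higher in the mutant of all 3 pairs, while Ier2, Jun and Junb were lower in both cKO pairs and higher in the dcKO pair. Zfp36 was lower in the mutant of each pair (-0.46, -0.44 and -0.35), and Dusp1 was level in the first pair (0.006) and higher in the others (0.21 and 1.12). Each pair is 1 embryo against 1, and a fit with this number as a block is given among the alternatives.

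Among 50 other immediate early genes, 40 were tested. In cKO, edgeR called 0 of them, 6 were higher and 6 lower at an unadjusted p-value under 0.05 (27.0% of all genes in either direction), and DESeq2 called 3 higher and 2 lower (8.82%). These counts lie near the shares over all genes. Their median log2 fold change was -0.17. The smallest p-values belonged to Plk2, a polo-like kinase (1.34 ± 0.27, edgeR adjusted p-value 0.0509), Ccn2, a secreted matrix protein (1.79 ± 0.36, 0.0509), and Gadd45g, a stress-response protein also found in intermediate progenitors (-2.56 ± 0.71, 0.0643). Jund, the JUN subunit outside the list, was at -0.91 ± 0.29 in cKO (0.0861) and -0.45 ± 0.29 in dcKO (0.319). In dcKO, edgeR called 0, 2 were higher and 5 lower at the unadjusted level (29.2% of all genes), and DESeq2 called 0 higher and 3 lower (8.46%). The smallest p-value was that of Socs3, an inhibitor of cytokine signalling (-1.62 ± 0.41, 0.0544). Between the mutants Plk2 had the smallest, at -1.19 ± 0.27 (0.624 in edgeR and 0.00663 in DESeq2).

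Of 15 proteins that bind AU-rich elements, 14 were tested. In cKO, edgeR called 0 and DESeq2 called 1 lower (8.82% of all genes called in either direction), which was Elavl3, a neuronal ELAV protein (-1.05 ± 0.37, DESeq2 adjusted p-value 0.0421). In all, 11 of 14 were lower in every cKO embryo, against 28.0% of all genes, with a median log2 fold change of -0.23. In dcKO 1 of 14 was lower in every embryo, against 11.2%, and the median was 0.03. This was Elavl3, which DESeq2 also called in dcKO (-1.05, DESeq2 adjusted p-value 0.0375). The dcKO values rest on dcKO 2, since the summed level of the list was 3314 CPM in dcKO 1 and 2605 in dcKO 3, below the 3706 to 3851 CPM of Ctrl as in cKO (2846 to 3178), but 5136 in dcKO 2. Without dcKO 2, 5 of 14 were lower in every embryo, against 20.1% of all genes, and the median was -0.30 against 0.03 over all genes. Markers of cortical neurons had a median of -0.58 in cKO, with 3 of 7 lower in every embryo, and those of intermediate progenitors -0.34, with 3 of 5, both against the 28.0% of all genes. Their part in these values was not tested. Zfp36l1, a paralog of Zfp36, stood at 184 ± 21.7 CPM in Ctrl, 129 ± 5.82 CPM in cKO and 184 ± 65.8 CPM in dcKO. The fitted log2 change in cKO was -0.52 ± 0.23 (edgeR adjusted p-value 0.188). Zfp36l2 was at -0.21 ± 0.34 (0.717). Of 21 upstream kinases and transcription factors, all were tested, and edgeR called 0 in cKO and DESeq2 called 1 lower (8.82% of all genes). This was Map2k2, the MEK2 kinase, at -1.90 ± 0.67 in cKO (adjusted p-value 0.112 in edgeR and 0.0198 in DESeq2) and -1.66 ± 0.67 in dcKO (0.136 and 0.0391). Mapk10, the JNK3 kinase, was at 0.99 ± 0.24 in cKO (0.053). Srf, the factor that binds the serum response element, was at -1.46 ± 0.70 (0.211), and Elk1, its partner, at -0.84 ± 0.26 (0.0817). Of 10 heat shock genes, 7 were tested, with 0 at an unadjusted edgeR p-value under 0.05 in all 3 comparisons (27.0%, 29.2% and 4.42% of all genes). DESeq2 called 0 of them (8.82%, 8.46% and 0.38% of all genes), and so did edgeR, which called at most 0.0146% of all genes.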

How the data were processed

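RNA-seq of cortices from single E12.5 embryos (3 Ctrl, 3 cKO, 3 dcKO) was analysed from the count table. The authors made stranded poly(A) libraries, trimmed adapters with cutadapt, used STAR to align paired-end reads to mm39 and featureCounts to count reads per gene, and they deposited these raw counts without normalization. Versions and the annotation release are not given in the sources used here. Of 57010 genes, 30138 had no read. Total counts ranged from 21193798 to 45073349 per embryo, and counting floors of 3 reads cover counting error only.

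Counts were tested with the quasi-likelihood test of edgeR 4.0.16 (R 4.3.3, TMM factors) with the 3 genotypes of all 9 embryos as the only terms of one model, over the 13680 genes in which each embryo had more than 10 reads. Calls needed a more than 2-fold difference at a p-value under 0.05 after Benjamini-Hochberg adjustment. Fos, Junb and Ier3 failed the filter and were read from a fit of 26872 genes with a read, including their DESeq2 1.42.0 values. The SE is the log2 fold change divided by the square root of F. CPM used TMM factors, and log2 CPM a prior count of 0.5. Exact permutation tests of 3 against 3 embryos cannot go below 0.1. Also tried were DESeq2, upper-quartile and RLE factors, filterByExpr, no filter, a fit of the compared embryos alone, leaving out single embryos, and blocks for the replicate number or the number in the embryo code. Offsets for GC content (loess, span 0.3, longest M21 transcript) were added with the data in view.

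Identifiers matched 52029 genes of GENCODE M21 (GRCm38), which differs from mm39, so coordinates are those of GRCm38. The 10 members and all gene lists were chosen with earlier results of these data known. All members are named. Of other lists, the text names some of the 3 genes with the smallest edgeR p-value per comparison, plus Zfp36l1, Zfp36l2, Srf and Jund, and the 5 genes that correlate best with the mean of the tested members. Replicate numbers were not used to pair embryos. No 2 libraries of the same genotype agreed within sampling noise.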

Additional observations from a re-analysis of the deposited data

How the results depend on the processing

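Under RLE and upper-quartile factors and edgeR's filterByExpr, all counts of called members stayed the same. They also did in a fit blocked on the replicate number, where 0 members were called in every comparison. The median of the members in cKO changed sign, from -0.03 to 0.08 with upper-quartile factors and to 0.12 with filterByExpr, which covers 9 members. With RLE factors it was -0.04. In dcKO and between the mutants the medians kept their sign in these fits. The replicate block gave medians of -0.04, -0.44 and -0.12 for cKO, dcKO and dcKO against cKO. Of 9 same-numbered pairs, 1 had deviations correlated above 0.1 (range -0.54 to 0.13), so the replicate numbers do not pair the embryos.

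Counts here cover the 6 tested members, or 9 with filterByExpr or with no filter. In cKO, 1 of these was called higher (Atf3) when only the 6 embryos compared were fitted (12.9% of all tested genes). With the same embryos and all genes with a read (9.33% called), Ier3 passed (1.17, edgeR adjusted p-value 0.0333) and Atf3 was no longer called. Ier2 was the 1 member called lower in cKO by DESeq2, with only those embryos, with no filter (3.03% of all genes) and with the code number as a block. With single embryos left out, the members called in cKO ranged from 0 to 1 in both directions (Atf3 without dcKO 2, Ier2 without dcKO 1 or dcKO 3, where 8.34%, 6.72% and 10.8% of all genes were called), and those called lower ranged from 0 to 1 in dcKO (Ier2) and between the mutants (Egr1), both without dcKO 3 (23.7% and 9.04% of all genes). Values that changed sign when 1 embryo was left out, between dcKO and cKO, were Jun (-0.26 without dcKO 3), Junb (-1.16), Ier2 (-0.28), Ier3 (0.12 without dcKO 2) and Dusp1 (0.03 without cKO 2, 0.16 without dcKO 1, 0.21 without dcKO 2). In dcKO against Ctrl, Ier3 (-0.088) and Dusp1 (-0.29) did so without dcKO 3. Over the embryos left out these values ranged from -0.26 to 0.52 for Jun, -1.16 to 1.19 for Junb, -0.28 to 1.12 for Ier2, -1.24 to 0.12 for Ier3 and -0.47 to 0.21 for Dusp1 between the mutants, and in dcKO from -0.09 to 1.29 for Ier3 and -0.29 to 0.39 for Dusp1. The GC correction turned Dusp1 (0.11) and Zfp36 (0.067) between the mutants.

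With the code number as a block, the dcKO contrast rests on the 1 pair Ctrl 3 and dcKO 3. The median of the members was then -0.24 in cKO, 0.72 in dcKO and 0.56 between the mutants, Ier2 in cKO was at -2.27 (adjusted p-value 2.14e-07), 1 member was called higher in dcKO (Dusp1, 1.12, 0.00407), and 3 were called higher between the mutants (Jun 1.56, Ier2 2.98, Dusp1 1.01). Of all genes, 14.5%, 11.9% and 11.6% were called in cKO, dcKO and between the mutants. Jun (0.73), Junb (1.68) and Ier2 (0.70) in dcKO turned, as did Egr1 in cKO (-0.027) and Ier3 (0.52), Dusp1 (1.01) and Zfp36 (0.11) between the mutants. The causes of these changes were not tested beyond the samples each fit holds. Fos, Fosb, Junb and Ier3 had at most 89 reads in an embryo, and whether depth limits their calls was not tested.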
